A study of Homo sapiens with 6 samples.

Results

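The 36 genes described here encode the folding machinery of the endoplasmic reticulum (ER): 7 chaperones and cofactors of the HSP70/90 type, 4 genes of the lectin cycle, 12 disulfide isomerases and related thiol genes, 10 genes of ER-associated degradation (ERAD) and 3 subunits of the SEC61 translocon. They were taken by symbol from the deposited count table, and all 36 were found among its 65746 symbols, of which 18157 had at least 1 count. Every one had reads in each of the 6 libraries and passed the filter on low counts. The libraries came from SU-DHL-8, an established human cell line of diffuse large B-cell lymphoma, a tumour of mature B cells, with its genotype given as WT. In 3 libraries the cells had received 100 nM erianin, a bibenzyl compound known from Dendrobium orchids, for 24 h. In the other 3 they had received DMSO, the solvent, over the same time. The study used a single line, and its texts speak of replicate experiments without saying that each library came from its own culture, so the p-values below speak only for the spread among these 6 libraries, part of which may be technical.

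Proteins bound for the cell surface or for secretion enter the ER through the SEC61 channel and fold there with the help of HSP70- and HSP90-type chaperones, of lectins that read the sugar trees on the new chain, and of isomerases that form and shuffle disulfide bonds. Chains that fail to fold are recognised by lectins, drawn back through the membrane, tagged with ubiquitin by the HRD1 ligase and degraded, a route called ERAD. The load on this system is sensed by IRE1, PERK and ATF6, and many of the folding genes are textbook targets of ATF6 and XBP1. In B-lineage cells the same machinery folds immunoglobulin, and it is enlarged when such cells become plasma cells.

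Library totals ran from 30956443 to 35588728 counts. The 36 genes together took 0.510%, 0.483% and 0.481% of all counts in DMSO replicates 1 to 3 and 0.595%, 0.604% and 0.589% in erianin replicates 1 to 3. DMSO replicate 1 stood apart from the rest: its biological coefficient of variation was 0.292 and 0.295 against DMSO replicates 2 and 3, which differed from each other by 0.038, while the erianin pairs lay between 0.0336 and 0.0815. Ribosomal protein genes took 8.54% of its counts and 11.5% to 12.5% in the other libraries. Calls and counts of calls below are therefore given with that library and, where leaving it out changes them, without it. Of the B cell markers, 10 of 10 were counted, with a summed level of 8242 to 8260 CPM (counts scaled to the depth of each library) in DMSO and 5893 to 6457 with erianin. Most of that sum was CD74 and CD79B, and the list did not move as one. With all libraries 1 marker rose, 3 fell and 6 were not called, against 11.8% higher and 12.3% lower over all genes tested. Without DMSO replicate 1, 3 rose and 6 fell, against 27.8% and 27.4%. CD79A was at 447 to 453 CPM in DMSO and at 564 to 643 CPM with erianin. Plasma cell markers summed to 963 to 1332 CPM in DMSO and 627 to 687 CPM with erianin, although SDC1, the marker that defines those cells, stayed at or under 3 counts in every library. Most of that sum was CD38 and IRF4. Of the 5 tested, 0 rose and 1 fell, and 0 rose and 3 fell without DMSO replicate 1. Markers of T and NK cells (1.84 to 5.91 CPM in DMSO, 4.77 to 5.66 CPM with erianin), of myeloid cells (4.57 to 7.7 and 9.74 to 11.3 CPM) and of stroma and epithelium (0.164 to 0.339 and 0.347 to 0.629 CPM) were low, and CD3G, CD2, S100A8, S100A9 and EPCAM were at 0 in all libraries. In bulk RNA, fewer cells of a kind and less RNA per cell cannot be told apart, and the part of the shifts in B and plasma cell markers in the results below was not tested.

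Erianin was accompanied by higher levels of the central ER chaperones HSPA5, HSP90B1 and CALR. Of the 10 genes of the ERAD class 3 were lower, SYVN1, EDEM1 and DERL1, and only EDEM1 kept its call whichever library was left out. Of 24 other tested ERAD genes 2 rose and 1 fell. With all 6 libraries, 8 of the 36 genes (22.2%) rose, against 11.8% of the 11550 genes tested, and 5 (13.9%) fell, against 12.3%. The call was an adjusted p under 0.05 in edgeR's quasi-likelihood test with Benjamini-Hochberg adjustment over all genes tested, and a log2 fold change is erianin minus DMSO, with its standard error (SE). The genes that rose were HSPA5, HSP90B1, MANF, CALR, PDIA3, ERO1B, CRELD2 and SEC61G, and those that fell were ERP29, TXNDC11, SYVN1, EDEM1 and DERL1. The other 23 did not pass. The median log2 fold change of the 36 genes was 0.07 and that of all genes tested was 0.00, so the set as a whole did not lie to one side. Without DMSO replicate 1, 15 of 36 (41.7%) rose, against 27.8% of 11773 genes, and 11 (30.6%) fell, against 27.4%. All 13 genes called with every library were called in the same direction without it. The share that fell lay near the background in both fits.

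**Figure D1:**
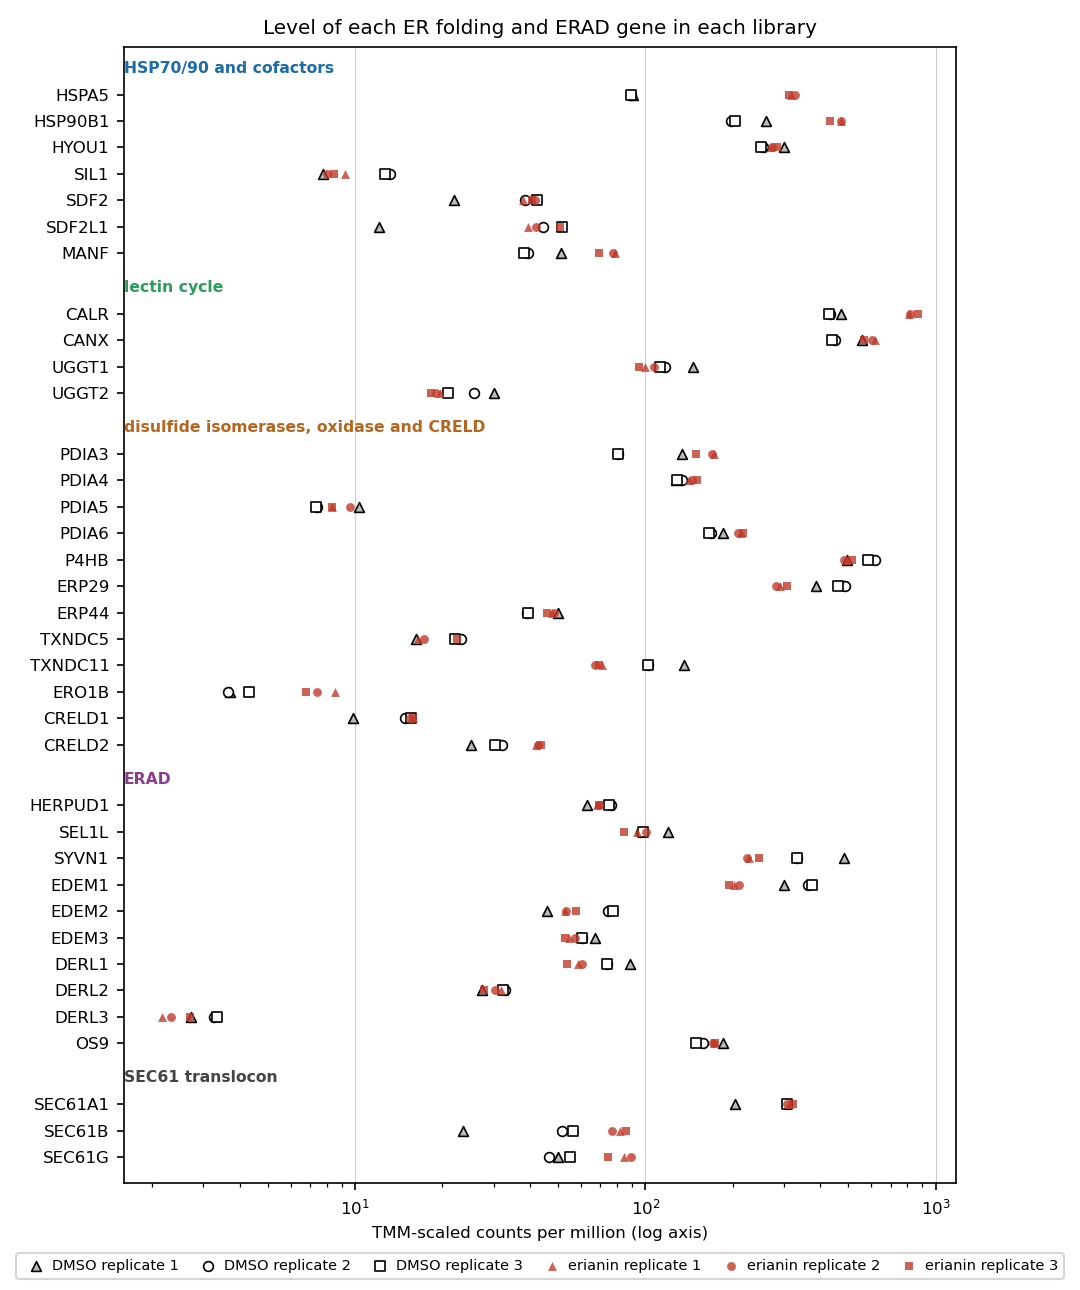
Level of each of the 36 genes in every library, in TMM-scaled CPM on a log axis, by class. Grey and open symbols are the 3 DMSO libraries and red symbols the 3 erianin libraries, with the grey triangle marking DMSO replicate 1. The erianin libraries of HSPA5 sit between 312 and 327 CPM, far to the right of the DMSO libraries near 90 CPM, while the DMSO replicate 1 symbol of SDF2L1 (12.1 CPM) lies apart from every other library.

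Levels by library showed the same division, as plotted for each gene. The 3 erianin libraries lay above the 3 DMSO libraries in 13 of the 36 genes (36.1%), against 23.6% of all genes tested, and below them in 9 (25%), against 23.1%. Of the 13 called genes, 5 kept their call whichever library was left out, namely HSPA5, HSP90B1, CALR, ERO1B and EDEM1. HSPA5, HSP90B1, CALR and ERO1B also kept it under every other scaling, filter, test and unit tried. Of all genes tested 1368 rose and 1423 fell with all libraries. Without erianin replicate 1, 2 or 3, 429, 407 and 617 rose and 348, 338 and 581 fell. On log2(TPM + 1) values 1408 rose and 262 fell by limma's test. Calls lost without an erianin replicate, and lower calls lost on TPM, stand beside that loss over the whole table. How many of all called genes kept their call was not counted.

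**Figure D2:**
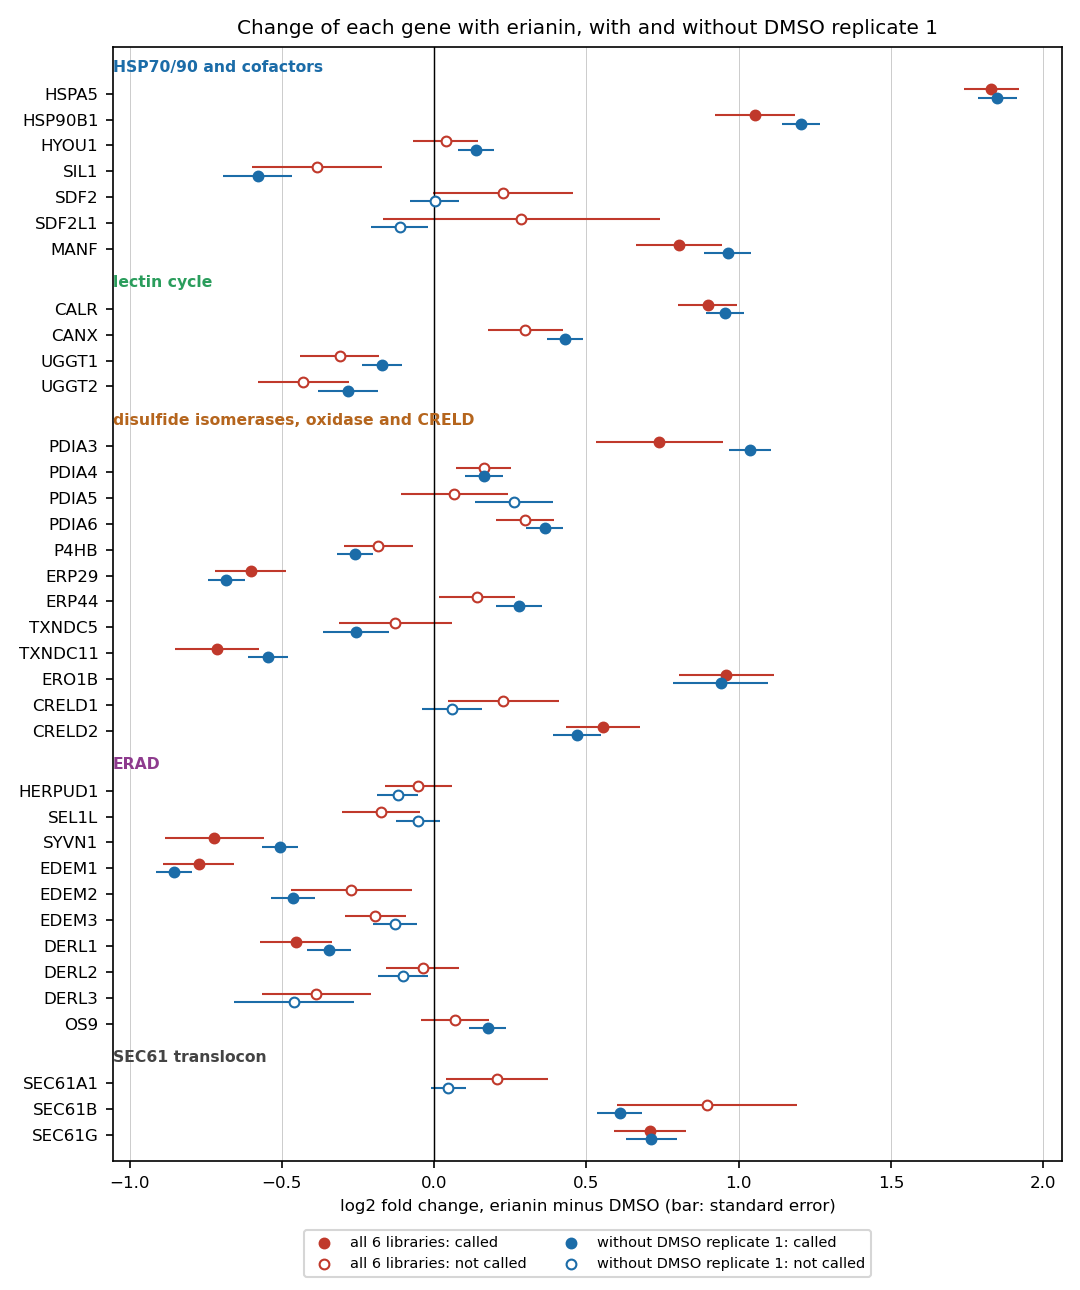
Log2 fold change (erianin minus DMSO, bar: standard error) of each gene with all 6 libraries in red and without DMSO replicate 1 in blue; filled symbols are called genes. HSPA5 lies farthest to the right at 1.83 with all libraries and EDEM1 farthest to the left at -0.77, and the bars of most genes are shorter without DMSO replicate 1.

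The HSP70/90 class held the 2 genes with the largest rise of the 36. HSPA5 (BiP, ENSG00000044574, chr9:125234853-125241330, minus strand), the HSP70 of the ER, stood at 90.5, 89.3 and 89.2 CPM in DMSO and at 318, 327 and 312 CPM with erianin. The groups lay far apart, and DMSO replicate 1 lay level with the other controls here. The mean went from 89.7 ± 0.752 to 319 ± 7.46 CPM (SD, n = 3 each). Its log2 fold change was 1.83 ± 0.09, or 3.55-fold (edgeR adjusted p = 0.000216), rank 119 of the 11550 genes from the highest down. HSPA5 is the gene on which the ER stress response element (ERSE) is best known, and the 250 bases before its start are shown because they carry that element, with the matching letters in capitals (RefSeq, GRCh38.p14, chr9:125241344-125241593, minus strand, written 5′ to 3′ in the direction of the gene):
HSPA5 promoter: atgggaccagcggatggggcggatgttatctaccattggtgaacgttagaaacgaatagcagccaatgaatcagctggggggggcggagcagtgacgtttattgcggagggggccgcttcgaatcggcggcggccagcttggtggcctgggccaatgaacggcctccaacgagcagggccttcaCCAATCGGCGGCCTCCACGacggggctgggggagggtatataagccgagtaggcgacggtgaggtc

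HSP90B1 (GRP94, ENSG00000166598, chr12:103930107-103953645), the HSP90 of the ER and a chaperone of toll-like receptors and integrins, stood at 261, 198 and 204 CPM in DMSO and at 472, 471 and 432 CPM with erianin. All erianin libraries lay above all controls, and DMSO replicate 1 was the highest control. The log2 fold change was 1.05 ± 0.13, or 2.08-fold (edgeR adjusted p = 0.00324), and 1.20 ± 0.06 without that library. MANF, a small secreted-type protein that binds HSPA5, stood at 51.1, 39.4 and 38.2 CPM against 78.3, 77.5 and 69 CPM with erianin, again with no overlap. It rose by 0.81 ± 0.14 (edgeR adjusted p = 0.0086), a call that was lost without erianin replicate 1 (0.0522) or 2 (0.0526).

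The exchange factors and the SDF2 proteins, which serve HSPA5, were not called with all libraries. HYOU1 (GRP170, ENSG00000149428, chr11:119044189-119057202), which exchanges nucleotide on HSPA5 and holds clients itself, stood at 301, 254 and 251 CPM in DMSO and at 271, 273 and 284 CPM with erianin. Its groups overlapped, with DMSO replicate 1 above every erianin library and the other controls below. The log2 fold change was 0.04 ± 0.11 (edgeR adjusted p = 0.828), and without DMSO replicate 1 it was 0.14 ± 0.06 (0.0479). SIL1, the second exchange factor, was at 7.72, 13.2 and 12.7 CPM in DMSO and 9.26, 8 and 8.49 CPM with erianin, with DMSO replicate 1 the lowest of the 6. It was called lower without that library (log2 fold change -0.58 ± 0.11, edgeR adjusted p = 0.000123) and not with it (0.229), except with sample quality weights (2.84e-05) or offsets for GC content and length (0.0387). SDF2 and SDF2L1, which hold clients with a J protein, were not called in either fit. SDF2L1 was at 12.1 CPM in DMSO replicate 1 against 44.5 and 51.6 CPM in the other controls and 39.4, 41.8 and 50.9 CPM with erianin, so that its log2 fold change passed from 0.29 ± 0.46 to -0.11 ± 0.09 when that library was left out. Of the 7 genes, 3 rose and 0 fell, against 11.8% and 12.3% of all genes tested. Without DMSO replicate 1, 4 rose and 1 fell, against 27.8% and 27.4%. The class median was 0.29, or 0.14 without DMSO replicate 1.

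In the lectin cycle, calreticulin rose under every alternative tried, while the call of its membrane-bound relative calnexin depended on the fit. CALR (ENSG00000179218, chr19:12938578-12944489), the soluble lectin that holds chains whose sugar tree still bears glucose, was at 472, 434 and 431 CPM in DMSO and at 808, 814 and 871 CPM with erianin. The groups were far apart and the controls lay close together. The log2 fold change was 0.90 ± 0.10, or 1.87-fold (edgeR adjusted p = 0.00216). The stretch from 250 to 32 bases before its start holds an ERSE on the opposite strand, in capitals (RefSeq, GRCh38.p14, chr19:12938359-12938577, plus strand):
CALR promoter: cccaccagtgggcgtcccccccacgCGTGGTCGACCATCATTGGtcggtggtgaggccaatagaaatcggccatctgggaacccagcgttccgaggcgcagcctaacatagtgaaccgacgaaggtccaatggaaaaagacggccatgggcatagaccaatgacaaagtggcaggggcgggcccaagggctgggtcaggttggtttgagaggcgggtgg

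CANX (ENSG00000127022), the membrane-bound lectin, was at 559, 450 and 441 CPM in DMSO and at 616, 602 and 566 CPM with erianin. The erianin libraries were all higher, but the lowest of them and DMSO replicate 1 were almost level. The log2 fold change was 0.30 ± 0.12 (edgeR adjusted p = 0.115), and 0.43 ± 0.06 without DMSO replicate 1 (1.5e-06). With all libraries CANX was also called higher with upper-quartile scaling (0.0466), with sample quality weights (1.7e-07) and on log2(TPM + 1) and log2(TPM + 0.1) values (limma, 0.0452 and 0.0489). The glucosyltransferases, which return unfinished chains to the lectins, lay the other way. UGGT1 was at 146, 117 and 113 CPM in DMSO and at 99.8, 107 and 95.4 CPM with erianin, and UGGT2 at 30.1, 25.8 and 20.8 against 19.6, 19 and 18.3 CPM. For both genes every erianin library was below every control. Neither was called with all libraries (log2 fold change -0.31 ± 0.13 and -0.43 ± 0.15, edgeR adjusted p = 0.124 and 0.0771), and both were called lower without DMSO replicate 1 (-0.17 ± 0.07 and -0.28 ± 0.10, 0.0331 and 0.0162). UGGT2 was also called without DMSO replicate 3 (0.0391) and by DESeq2 (0.0398). With all libraries and sample quality weights UGGT1 and UGGT2 were both called lower (limma, 0.0137 and 0.00531). Of the 4 genes of the cycle, 1 rose and 0 fell with all libraries, against 11.8% and 12.3% of all genes tested. Without DMSO replicate 1, 2 rose and 2 fell, against 27.8% and 27.4%, so the class had no common direction.

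The disulfide class split in both directions: 3 of its 12 genes rose and 2 fell with all libraries, and 6 rose and 4 fell without DMSO replicate 1. Over all genes tested 11.8% rose and 12.3% fell in the first fit and 27.8% and 27.4% in the second, so the share of the class that fell lay near the background. PDIA3 (ERp57, ENSG00000167004, chr15:43746392-43773279), the isomerase that works with calnexin and calreticulin and in the peptide loading complex, was at 134, 80.6 and 80.6 CPM in DMSO and at 173, 169 and 150 CPM with erianin. The groups did not overlap, although DMSO replicate 1 lay nearer to the erianin libraries than to the other controls. The log2 fold change was 0.74 ± 0.21 (edgeR adjusted p = 0.0402), and 1.04 ± 0.07 without DMSO replicate 1. Leaving out any other single library ended the call, with adjusted p between 0.0987 and 0.135. ERO1B (ENSG00000086619, chr1:236215555-236281985), an oxidase that recharges the isomerases, had low counts throughout: 3.71, 3.64 and 4.29 CPM in DMSO and 8.55, 7.37 and 6.75 CPM with erianin. Its groups were well apart, and it rose by 0.96 ± 0.16, or 1.94-fold (edgeR adjusted p = 0.00686). CRELD2, a thiol protein of the ER that is induced under ER stress, was at 25, 32.1 and 30.3 CPM in DMSO and at 42, 42.6 and 43.7 CPM with erianin. The erianin libraries lay close together and above all controls, and it rose by 0.55 ± 0.12 (edgeR adjusted p = 0.0181), a call that was lost without any 1 of the erianin replicates (0.0702 to 0.0804) and on log2(TPM + 1) values (0.0858).

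The 2 thiol genes that fell were a chaperone without isomerase activity and a membrane protein. ERP29 (ENSG00000089248, chr12:112013316-112023451), a PDI-fold escort of secretory proteins, was at 386, 489 and 460 CPM in DMSO and at 290, 283 and 307 CPM with erianin. All erianin libraries were lower, and DMSO replicate 1 was the lowest control. It fell by 0.60 on the log2 scale (SE 0.12, 1.52-fold lower, edgeR adjusted p = 0.012), a call lost without erianin replicate 1 (0.0731) or 2 (0.0788) and on TPM (0.458). TXNDC11, a thioredoxin-like membrane protein of the ER, was at 136, 102 and 102 CPM in DMSO and at 71.1, 67.1 and 69.3 CPM with erianin. The groups were apart, with DMSO replicate 1 the highest. It fell by 0.71 on the log2 scale (SE 0.14, 1.64-fold lower, edgeR adjusted p = 0.0122), a call lost without any 1 of the erianin replicates (0.0577 to 0.076) and on TPM (0.0655).

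The isomerases P4HB, PDIA6 and PDIA4 were not called with all libraries. P4HB, the archetypal protein disulfide isomerase, was at 495, 616 and 586 CPM in DMSO and at 494, 484 and 517 CPM with erianin, and DMSO replicate 1 alone of the controls lay among the erianin libraries. PDIA6 was at 186, 169 and 166 CPM in DMSO and at 213, 208 and 218 CPM with erianin, without overlap. PDIA4 was at 128, 133 and 129 CPM against 141, 145 and 150 CPM, also without overlap. With all libraries none of the 3 passed (log2 fold change -0.18, 0.30 and 0.16, edgeR adjusted p = 0.278, 0.0584 and 0.232). PDIA6 was called higher by DESeq2 (0.0119) and with upper-quartile scaling (0.0227), library totals (0.0255), a filter of 1 CPM (0.0388) or sample quality weights (5.12e-06). Without DMSO replicate 1, P4HB was called lower (-0.26 ± 0.06) and PDIA6 (0.36 ± 0.06) and PDIA4 (0.16 ± 0.06) higher. With all libraries and sample quality weights P4HB was called lower (limma, 2.83e-05) and PDIA4 higher (0.0307). ERP44, which retrieves ERO1 oxidases and unassembled immunoglobulin M from the early Golgi, was at 50, 39.2 and 39.6 CPM in DMSO and at 47.6, 48.5 and 45.8 CPM with erianin, and DMSO replicate 1 was the highest of all 6. It was called higher without that library (0.28 ± 0.08, edgeR adjusted p = 0.00308) and not with it (0.455), except with sample quality weights (limma, 0.000473). TXNDC5 was at 16.2, 23.1 and 22.1 CPM in DMSO and at 16.5, 17.2 and 22.5 CPM with erianin, with overlapping groups. It was called lower without DMSO replicate 1 (-0.26 ± 0.11, 0.047) or with sample quality weights (limma, 0.000534). In GENCODE 29, 60.6% of its exonic bases are shared with the readthrough gene BLOC1S5-TXNDC5, which is listed at 0 in every library. PDIA5 and CRELD1 were not called in either fit, with group means of 8.35 and 8.74 CPM for PDIA5 and 13.4 and 15.7 CPM for CRELD1. PDIA5 was called higher with sample quality weights (limma, 0.0367).

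In the ERAD class, 3 of 10 genes fell and 0 rose, and 4 fell and 1 rose without DMSO replicate 1. Over all genes tested 12.3% fell and 11.8% rose in the first fit, and 27.4% and 27.8% in the second. The class median was -0.23 (-0.24 without DMSO replicate 1). The sign of that median turned on log2(TPM + 1) values (0.06), where the median of all genes moved up by 0.205, to 0.202, so the class stayed below the median gene there. EDEM1 (ENSG00000134109, chr3:5187646-5219957), a mannosidase-like lectin that marks terminally misfolded glycoproteins for disposal, was at 300, 364 and 374 CPM in DMSO and at 202, 211 and 194 CPM with erianin. The groups were far apart, with DMSO replicate 1 the lowest control. EDEM1 fell by 0.77 on the log2 scale (SE 0.12, 1.71-fold lower, edgeR adjusted p = 0.00534), a call that held without each library and was lost on TPM (0.262). SYVN1 (HRD1, ENSG00000162298, chr11:65121780-65134533), the ubiquitin ligase at the centre of ERAD, was at 484, 333 and 333 CPM in DMSO and at 227, 224 and 246 CPM with erianin. Every erianin library was below every control, and DMSO replicate 1 was well above the others. It fell by 0.72 on the log2 scale (SE 0.16, 1.65-fold lower, edgeR adjusted p = 0.0196) and by 0.51 without DMSO replicate 1, and the call was lost without any 1 of the erianin replicates (0.0697 to 0.0993) and on TPM (0.0583).

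DERL1, a derlin thought to help pull clients out of the membrane, was at 88.9, 73.9 and 73.6 CPM in DMSO and at 58.4, 60.5 and 53.7 CPM with erianin. Its groups did not overlap. It fell by 0.45 on the log2 scale (SE 0.12, 1.37-fold lower, edgeR adjusted p = 0.0311), and the call was lost without any 1 library other than DMSO replicate 1 (0.053 to 0.129), with the replicate number as a block (0.055), with scaling to library totals (0.0927) and on TPM (0.458). SEL1L, the scaffold that holds the SYVN1 ligase together, was at 120, 96.6 and 98 CPM in DMSO and at 93.8, 101 and 84.5 CPM with erianin, with overlapping groups (log2 fold change -0.17 ± 0.13, edgeR adjusted p = 0.365). OS9, which delivers glycoproteins to SEL1L, was at 185, 158 and 149 CPM in DMSO and at 172, 172 and 173 CPM with erianin. Its 3 erianin libraries were nearly equal and lay between the controls. OS9 was called higher without DMSO replicate 1 (0.18 ± 0.06, 0.0166) but not with it (0.694), except with sample quality weights (limma, 0.0125). EDEM2, the mannosidase that starts trimming, was at 45.8, 74.6 and 77.2 CPM in DMSO and at 52.8, 53.2 and 57.9 CPM with erianin. Here DMSO replicate 1 was the lowest of the 6 libraries and the other 2 controls the highest. EDEM2 was called lower without DMSO replicate 1 (-0.46 ± 0.07, 5.69e-06) and not with it (0.358), except with sample quality weights (limma, 7.3e-07).

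HERPUD1, a scaffold of the ligase complex that is a well-known marker of ER stress, did not pass in either fit. It was at 62.9, 76 and 74.8 CPM in DMSO and at 68.2, 69 and 69.1 CPM with erianin, inside the range of the controls (log2 fold change -0.05 ± 0.11, edgeR adjusted p = 0.77). With sample quality weights it was called lower (-0.13, limma, 0.0374). The remaining 3 ERAD genes were not called in either fit: EDEM3 had group means of 62.7 ± 3.89 and 54.8 ± 2.28 CPM, DERL2 of 30.8 ± 2.99 and 30 ± 2.09 CPM, and DERL3 of 3.12 ± 0.34 and 2.39 ± 0.272 CPM (SD, n = 3 each). With sample quality weights DERL3 was called lower (limma, 0.00417). DERL3 shares 77% of its exonic bases with SMARCB1 on the other strand, and SYVN1 shares 10.1% with its neighbours, among them FAU, a ribosomal protein gene. The sources used here do not say how the counting treated strand, so reads over such bases cannot be told apart.

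Subunits of the SEC61 channel were unequal. SEC61G (ENSG00000132432, chr7:54752250-54759974), the gamma subunit that clamps the channel, was at 50.1, 46.6 and 54.9 CPM in DMSO and at 84.5, 89 and 74.1 CPM with erianin. The groups were well apart, and it rose by 0.71 ± 0.12, or 1.63-fold (edgeR adjusted p = 0.00743), a call lost, just past the threshold, without erianin replicate 2 (0.0505). SEC61B (ENSG00000106803, chr9:99222064-99230615), the beta subunit, was at 23.5, 51.6 and 56.2 CPM in DMSO and at 82.1, 76.7 and 85.6 CPM with erianin. All erianin libraries were above all controls, but DMSO replicate 1 was far below the other 2. The log2 fold change was 0.90 ± 0.30 and not called (edgeR adjusted p = 0.0646). Without DMSO replicate 1 it was smaller and called, at 0.61 ± 0.07 (1.69e-07). With all libraries SEC61B was called by DESeq2 (0.0183), with library totals (0.0401), with no filter on low counts (0.0321), with the replicate block (0.0342) and with sample quality weights (4.91e-07). SEC61A1, the pore itself, was at 203, 307 and 308 CPM in DMSO and at 313, 309 and 323 CPM with erianin. Its groups did not overlap, yet DMSO replicates 2 and 3 lay just under the erianin libraries, and it was not called with (0.21 ± 0.17, edgeR adjusted p = 0.408) or without DMSO replicate 1 (0.05 ± 0.06, 0.521). With all libraries 1 of the 3 rose and 0 fell, against 11.8% and 12.3% of all genes tested. Without DMSO replicate 1, 2 rose and 0 fell, against 27.8% and 27.4%.

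Levels of different genes were set beside each other per transcript length, in TPM, within a library. In DMSO replicates 2 and 3 ERP29 ranked highest of the 36 (411 and 386 TPM), with CALR next (341 and 338 TPM), while in DMSO replicate 1 CALR was first (241 TPM) and ERP29 next (211 TPM). With erianin CALR ranked highest (658, 678 and 711 TPM) and HSPA5 came next (423, 445 and 416 TPM), up from ranks 6, 8 and 9 in the controls. EDEM1 passed from rank 5 in each control to rank 14 in each erianin library. DERL3 was lowest in all 6 libraries. As a share of the summed TPM of the 36 genes, the HSP70/90 class went from 17.1% ± 1.27 in DMSO to 27.1% ± 0.409 with erianin, and the lectin class from 19.3% ± 2.47 to 24.7% ± 0.354 (SD, n = 3 each). A few genes carried these rises. From the mean of DMSO replicates 2 and 3 to that of erianin, HSPA5 went from 114 to 428 TPM, HSP90B1 from 77 to 184 and MANF from 49.3 to 99.7. HYOU1 (37.5 and 42.9), SDF2 (22.8 and 23.7), SDF2L1 (164 and 158) and SIL1 (5.32 and 3.69) changed little or were lower. CALR went from 339 to 682 TPM and CANX from 103 to 145, while UGGT1 (24.9 and 23) and UGGT2 (6.69 and 5.7) were lower. The translocon took 10.7% ± 2.35 and 13.1% ± 0.195. The disulfide class went from 34.9% ± 1.01 to 24.9% ± 0.203 and ERAD from 18% ± 0.406 to 10.3% ± 0.189. The lower share of the disulfide class stood beside a log2 fold change above 0 in 8 of its 12 genes, and ERP29, its most abundant gene in every library, ranked 2, 1 and 1 in DMSO and 3 in each erianin library. For each class the 3 erianin libraries lay beyond the 3 controls on 1 side. The shares were not tested, and an exact two-sided permutation test of 3 against 3 cannot go below 0.1. How often shares of other groups of genes lie apart was not counted. Among single genes tested, the CPM of the groups lay apart in 23.6% with erianin above and in 23.1% with erianin below. The shares add up to the whole, so a rise in 1 class lowers the others.

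**Figure D3:**
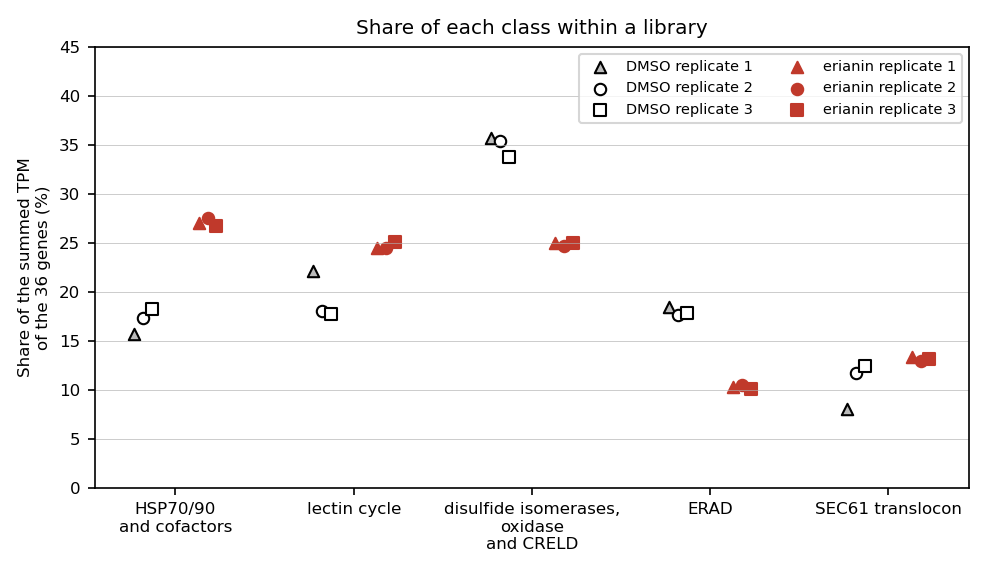
Share of the summed TPM of the 36 genes that each class took in each library (y axis, percent). Points are libraries, with grey and open symbols for DMSO and red for erianin, 3 of each. The HSP70/90 points with erianin sit near 27% against 15.7% to 18.2% in DMSO, while the ERAD points drop from near 18% to near 10.3%.

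Ratios between chosen partners compare genes inside 1 library. How often ratios of other genes set the groups apart was not counted, so the values below describe these pairs alone. The ratio of HSPA5 to HYOU1 was 2.6, 3.03 and 3.07 in DMSO and 10.1, 10.3 and 9.5 with erianin (TPM over TPM). That of HSPA5 to HERPUD1 went from 6.52 ± 0.755 to 23.8 ± 0.567, and that of HSPA5 to HSP90B1 from 1.38 ± 0.19 to 2.33 ± 0.0808 (SD, n = 3 each). For these 3 ratios the groups lay apart, DMSO replicate 1 included. The ratio of HSPA5 to SDF2L1 was 2.8, 0.753 and 0.649 in DMSO and 3.02, 2.93 and 2.3 with erianin, with DMSO replicate 1 among the erianin libraries. The ratio of CALR to CANX went from 3.14 ± 0.248 to 4.74 ± 0.411, and that of PDIA3 to P4HB from 0.483 ± 0.211 to 0.888 ± 0.0938, with DMSO replicate 1 (0.727) nearest to the erianin libraries. Within the ERAD ligase the ratio of SYVN1 to its scaffold SEL1L was 2.1, 1.8 and 1.77 in DMSO and 1.26, 1.16 and 1.52 with erianin. The ratio of EDEM1 to EDEM3 went from 8.91 ± 1.53 to 5.92 ± 0.0231. SEC61B over SEC61A1 went from 1.15 ± 0.259 to 1.91 ± 0.0658, whereas SEC61G over SEC61A1 and UGGT1 over UGGT2 overlapped between groups.

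Promoter letters were compared because ATF6 and XBP1 are known to act through short elements that were described on genes of this very set. RefSeq promoters (GRCh38.p14, 250 bases before to 50 after each start) were found for 33 of the 36 genes, and for PDIA3, DERL1 and DERL3 none was used. Both strands were searched for the ERSE (CCAAT, 9 bases of any kind, then CCACG), the ERSE-II (ATTGG, 1 base of any kind, then CCACG) and the UPRE (TGACGTGG). Only exact matches of the fixed letters were taken, so near matches are missed and the number of sites per gene may be too low. The ERSE begins with a CCAAT box and the ERSE-II with the same box read from the other strand. Sites of the ERSE and ERSE-II are shown to set the genes that rose beside those that were not called. UPRE matches, among them 1 in TXNDC11, which fell, are not listed here and are named below. Each site is written 5′ to 3′ in the direction of the motif with its fixed letters in capitals:
HSPA5 ERSE, chr9:125241391-125241409, minus strand: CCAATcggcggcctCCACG
HSP90B1 ERSE, chr12:103930216-103930234, plus strand: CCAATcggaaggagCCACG
HSP90B1 ERSE, chr12:103930321-103930339, minus strand: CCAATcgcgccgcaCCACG
CALR ERSE, chr19:12938384-12938402, minus strand: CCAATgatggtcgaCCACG
ERO1B ERSE, chr1:236282183-236282201, plus strand: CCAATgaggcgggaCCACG
CRELD2 ERSE, chr22:49918554-49918572, minus strand: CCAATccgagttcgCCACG
CANX ERSE, chr5:179698778-179698796, plus strand: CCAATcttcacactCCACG
PDIA6 ERSE, chr2:10812853-10812871, minus strand: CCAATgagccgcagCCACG
HYOU1 ERSE-II, chr11:119057380-119057390, plus strand: ATTGGaCCACG
HYOU1 ERSE-II, chr11:119057274-119057284, plus strand: ATTGGaCCACG
HERPUD1 ERSE-II, chr16:56932025-56932035, plus strand: ATTGGgCCACG
SDF2L1 ERSE-II, chr22:21642114-21642124, minus strand: ATTGGtCCACG

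The ERSE was present in 7 of the 33 genes with a promoter (21.2%), against 25 of the 27305 genes of the promoter table (0.0916%), 15 of the 9113 tested genes with a promoter (0.165%) and 27 of all 35116 promoters (0.0769%). Since the 36 genes were picked as known ER genes and the element was defined on some of them, these shares describe the choice and are no test. By call, the ERSE was in 5 of the 7 genes that rose and had a promoter (HSPA5, HSP90B1, CALR, ERO1B and CRELD2), in 0 of the 4 that fell and in 2 of the 22 that were not called, CANX and PDIA6. Without DMSO replicate 1 all 7 genes with an ERSE rose, against 41.7% of the 36 genes and 27.8% of all genes tested. MANF and SEC61G rose without a match in this window. HSP90B1 carried 2 sites, from 194 to 176 and from 89 to 71 bases before the start. The site of HSPA5 lay from 66 to 48, that of CRELD2 from 80 to 62 and that of PDIA6 from 86 to 68 bases before it, whereas those of CALR (225 to 207) and ERO1B (243 to 225) lay farther out. CANX has several annotated starts whose windows share a single site.

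The ERSE-II was in 3 of the 33 genes, HYOU1, HERPUD1 and SDF2L1, and none of the 3 was called with all libraries (log2 fold changes 0.04, -0.05 and 0.29), while HYOU1 was called higher without DMSO replicate 1. It was in 19 of the 27305 genes (0.0696%). HYOU1 held 2 copies, and the outer copy overlaps its UPRE match. UPRE letters were also in TXNDC5, from 92 to 85 bases before the start, and in TXNDC11, from 5 to 12 bases after it. Of these, TXNDC11 fell with all libraries. The UPRE was in 253 of the 27305 genes (0.927%). Outside the set the ERSE was in 8 other tested genes, of which 0 rose, 1 fell (XBP1) and 7 were not called (1 rose and 3 fell without DMSO replicate 1). Their median log2 fold change was -0.13, beside 0.90 for the 7 genes of the set, and the difference was not tested. The ERSE-II was in 10 other tested genes, of which 2 rose and 0 fell (5 and 3 without DMSO replicate 1), and the UPRE in 102, of which 9 rose and 13 fell (30 and 31). Over all genes tested 11.8% rose and 12.3% fell, or 27.8% and 27.4% without DMSO replicate 1. CRELD2 and ALG12 stand next to each other on opposite strands, and ALG12, named here after its values were seen, went from 17.6 ± 3.76 to 13.3 ± 0.0383 CPM (log2 fold change -0.41 ± 0.17, edgeR adjusted p = 0.126), and was called lower without DMSO replicate 1 (-0.56, 2.22e-05). A match is a run of letters and not a bound site, and binding was not measured.

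**Figure D4:**
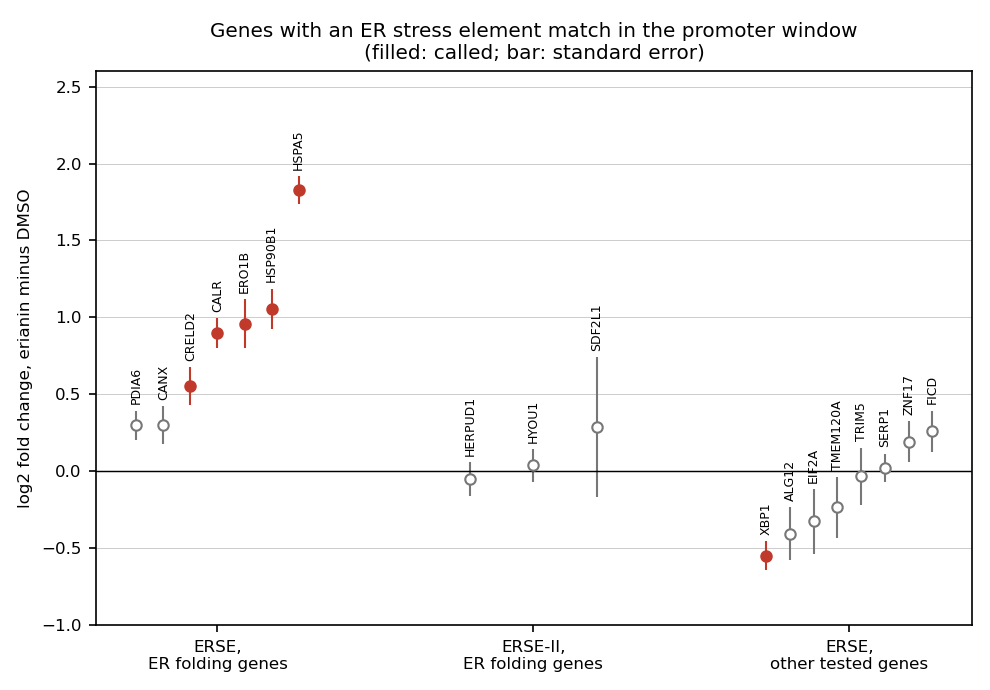
Log2 fold change (erianin minus DMSO, bar: standard error) of the 15 tested genes with an ERSE in their promoter window, split into genes of the set and other genes, and of the 3 genes of the set with an ERSE-II; filled symbols are called genes. The 7 genes of the set with an ERSE all lie above 0, up to 1.83 for HSPA5, the ERSE-II genes lie near 0 to 0.29, and the 8 others spread around 0, with XBP1 at -0.55.

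DMSO replicate 1 departed from the other controls in a way that varied with the composition and length of the transcripts. Over the 36 genes, the log2 ratio of its CPM to the mean of DMSO replicates 2 and 3 ran from low values in SDF2L1 (-1.99), SEC61B (-1.20) and SDF2 (-0.88) to 0.73 in PDIA3. Against GC content its Pearson r was -0.49 (Spearman rho -0.40), and against log2 transcript length 0.61 (0.48). Over 11404 tested genes the values were -0.51 (-0.52) and 0.34 (0.33). These correlations run across genes that share the same libraries and are descriptions. In a fit with offsets for GC content and length in each library, 11 of the 36 genes rose (30.6%, against 16.9% of all genes tested) and 8 fell (22.2%, against 18.4%), with CANX, PDIA6 and SEC61B added on the higher side and SIL1, UGGT2 and DERL3 on the lower side. HSPA5 was at 1.83 and HYOU1 at 0.04 in that fit as well. What set this library apart was not tested.

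**Figure D5:**
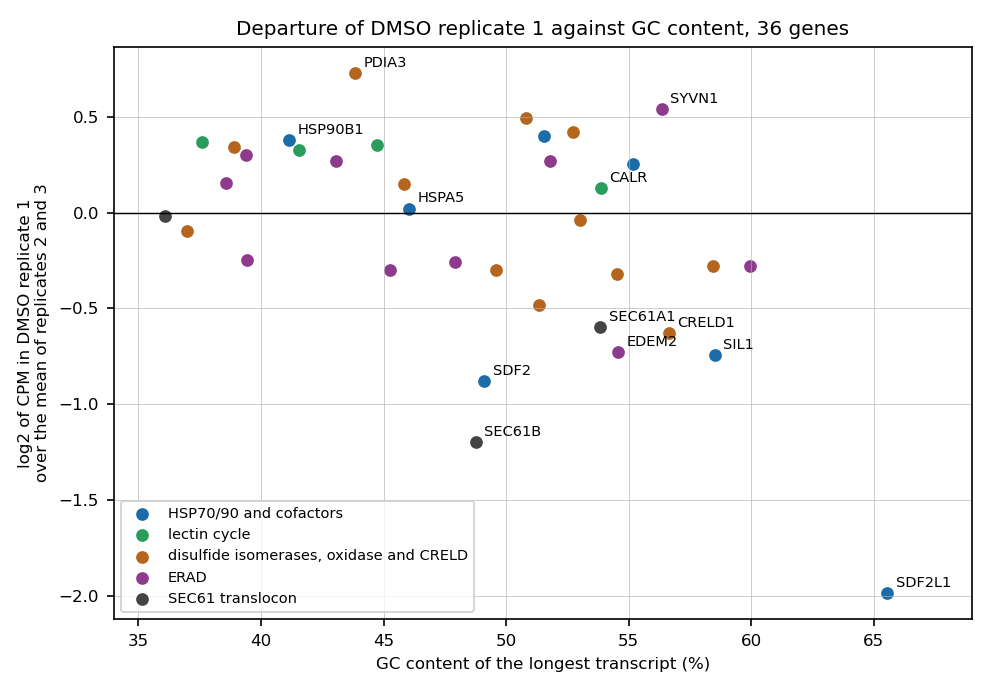
Log2 ratio of CPM in DMSO replicate 1 to the mean of replicates 2 and 3 (y axis) against GC content of the longest transcript in percent (x axis) for the 36 genes, coloured by class. SDF2L1, at 65.5% GC, lies lowest, and PDIA3, at 43.8% GC, highest.

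Other genes of the same pathway were read from lists chosen by function, and their counts stand beside the 11.8% of all genes that rose and the 12.3% that fell, or 27.8% and 27.4% without DMSO replicate 1. Among 18 tested J proteins and further folding factors of the ER, 7 rose and 2 fell (10 and 4 without DMSO replicate 1), with a median log2 fold change of 0.23. PPIB, a prolyl isomerase that works with HSPA5, went from 56.5 ± 2.26 to 93.7 ± 4.69 CPM and rose by 0.73 ± 0.10 (edgeR adjusted p = 0.00383). MZB1, a B-cell partner of HSP90B1 in immunoglobulin assembly, went from 206 ± 9.18 to 301 ± 16.6 CPM (0.55 ± 0.10, edgeR adjusted p = 0.00875), a call lost without erianin replicate 2 (0.0542) and on TPM (0.0614). Of the J proteins that drive the HSPA5 cycle, DNAJC3 rose by 0.69 ± 0.12 (edgeR adjusted p = 0.00931, lost without erianin replicate 1 or 2, up to 0.0586). DNAJB11 rose by 0.46 ± 0.10 (0.0199, lost without any 1 library other than DMSO replicate 1, up to 0.103, and under the replicate block). DNAJC1 fell by 0.91 on the log2 scale (SE 0.12, 0.0034, and 0.0577 on TPM). DNAJB9, which represses IRE1, stood at 8.69 ± 0.751 and 11.5 ± 2 CPM and was not called (0.40 ± 0.16, 0.116), though it was without DMSO replicate 1 (0.0245).

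Of 14 further thiol enzymes of the ER 2 rose and 1 fell, and 6 rose and 3 fell without DMSO replicate 1. TMX1, a membrane-bound isomerase, rose by 0.84 ± 0.12 (edgeR adjusted p = 0.00415), and ERO1A, the relative of ERO1B, by 0.45 ± 0.10 (0.0182, lost without any 1 library other than DMSO replicate 1, up to 0.0949). TXNDC16 fell by 0.64 on the log2 scale (SE 0.17, 0.0307), a call lost without DMSO replicate 2 or any 1 erianin replicate (up to 0.1). Among 24 other ERAD genes 2 rose, RNF139, a membrane ubiquitin ligase, and NGLY1, which strips sugars from retrieved chains (0.58 ± 0.12 and 0.53 ± 0.11, edgeR adjusted p = 0.0137 and 0.0139). Both calls were lost without DMSO replicate 2 or erianin replicate 1 or 2, up to 0.0767 and 0.0803. TMUB1 was the 1 that fell, by 0.68 on the log2 scale (SE 0.10, 0.00501, and 0.229 on TPM). Without DMSO replicate 1, 9 of these 24 rose and 9 fell. Of 23 genes of targeting and translocation 0 rose and 1 fell, SRPRA (-0.35 ± 0.10, edgeR adjusted p = 0.0442), whose call was lost without any 1 library other than DMSO replicate 1 (up to 0.181), and without that library 5 rose and 5 fell. Of 13 genes of glycan transfer and trimming 1 rose, MAGT1 (0.61 ± 0.12, edgeR adjusted p = 0.0132, lost without erianin replicate 1 or 2, up to 0.0741), and 0 fell, against 4 and 4 without DMSO replicate 1.

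Several genes of the unfolded protein response, which watches over this machinery, were lower. Of 16 tested genes of the unfolded protein response 0 rose and 6 fell, with a median of -0.30, and 1 rose and 7 fell without DMSO replicate 1, with a median of -0.20. ERN1 (IRE1), the sensor kinase and ribonuclease, was at 72.7, 59.3 and 57.9 CPM in DMSO and at 24.2, 22.1 and 24.2 CPM with erianin, and fell by 1.43 on the log2 scale (SE 0.13, edgeR adjusted p = 0.00125). EIF2AK3 (PERK) fell by 0.85 (SE 0.10, 0.00289) and ATF6B by 0.73 (SE 0.11, 0.00552), calls that were lost on TPM (0.0786 and 0.105). XBP1, the factor whose messenger RNA IRE1 splices, was at 130, 122 and 123 CPM in DMSO and at 83.2, 83.8 and 88.9 CPM with erianin. It fell by 0.55 (SE 0.09, edgeR adjusted p = 0.00807), a call lost without erianin replicate 1 or 2 (up to 0.0664) and on TPM (0.336). ATF4 (1232 ± 74.1 and 1171 ± 61.8 CPM, log2 fold change -0.07 ± 0.10) and DDIT3 (44.3 ± 7.18 and 52.9 ± 5.98 CPM, 0.25 ± 0.15), the factors downstream of PERK, were not called (edgeR adjusted p = 0.645 and 0.267). Splicing of XBP1 cannot be read from counts per gene.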

How the data were processed

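Total RNA was measured by RNA-seq in 6 libraries of SU-DHL-8 cells, 3 per treatment, grouped and numbered by their labels. The authors deposited whole-number counts per gene and TPM values. Both rest on GRCh38 (hg38) and on STAR 2.7.10, fastp 0.23.2, StringTie 2.2.1 and featureCounts 2.0.1, per the submitters' processing notes, which give these tools no role. The sources used here do not give the annotation release, the strand setting or the treatment of read pairs. The TPM of DMSO replicate 1 add up to 39.2% of what TPM should sum to, and those of the other libraries to 63.6% to 66.7%.

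The 36 genes and all gene lists were chosen with earlier results of these data known. Repeated symbols (61 of 65807) were left out. Deposited counts were tested with edgeR 4.0.16 in R 4.3.3: TMM scaling, filterByExpr (11550 genes kept), a quasi-likelihood F test with treatment as the single term, and Benjamini-Hochberg adjustment over all genes tested, with a threshold of 0.05. SE is the size of the log2 fold change divided by the root of F. CPM are TMM-scaled. The procedure was tested on simulated data in which all libraries had the same spread. These held no outlying library and no trend with GC content or length, so they do not speak for DMSO replicate 1. Genes named were the called genes, those of at least 100 CPM or whose call changes without 1 library, and from each further list the called genes with the 3 smallest p and XBP1, ATF4, DDIT3, DNAJB9, DNAJB11, DNAJC3, ERO1A and MZB1. Markers of B, plasma, T and NK, myeloid and stromal cells came from short lists of textbook markers.

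Alternatives were other scalings and filters, DESeq2 1.42.0, limma 3.58.1 (voom, quality weights, and log2 of TPM plus 1 or 0.1), a replicate block and leaving out each library. Offsets for GC content and length (mgcv 1.9.3, with values for 98.7% of genes tested), alone, with the block or without DMSO replicate 1, were chosen after seeing the data. Coordinates and overlaps came from GENCODE 29, to which all 36 symbols matched. Promoters came from RefSeq (GRCh38.p14).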

Additional observations from a re-analysis of the deposited data

How the results depend on the processing

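The number of genes of the set called higher was 8 and ran from 4 to 15 when 1 library was left out, and the number lower was 5 and ran from 1 to 11. The high ends came without DMSO replicate 1 and the low ends without erianin replicate 1 or 2. Over all genes tested 1368 rose and 1423 fell with all libraries, and 3278 and 3227 without DMSO replicate 1. Without erianin replicate 1 these counts were 429 and 348, and without erianin replicate 2 they were 407 and 338. Sample quality weights gave 15 higher and 13 lower, GC and length offsets 8 lower, and offsets without DMSO replicate 1 17 higher and 15 lower. Over all genes tested, weights gave 3699 higher and 3709 lower of 11550, and offsets 1954 and 2126 of 11550. Offsets without DMSO replicate 1 gave 3606 and 3665 of 11773, so calls in these fits were more frequent over the whole table. On log2(TPM + 1) and log2(TPM + 0.1) values 0 were lower by limma's test, against 8 higher in each. Over all 11550 genes tested 262 were lower and 1408 higher on log2(TPM + 1), and 245 and 1263 on log2(TPM + 0.1). Lower calls were thus few over the whole table on TPM. Scaling to library totals, TPM + 1 and TPM + 0.1 moved the median of all genes by 0.11, 0.205 and 0.28. Same-numbered libraries deviated together by correlations of 0.167, -0.143 and 0.231. DMSO replicates 1 and 2 correlated best with other numbers (0.172 and 0.248), and DMSO replicate 3 with its own. Pairing by number was thus not shown. Deviations from a mean of 3 libraries, 1 of them apart from the rest, cannot exclude it. With the replicate block 9 rose and 4 fell, the HSP70/90 median was 0.50, and the calls of DERL1 (lost) and SEC61B (gained) were the 2 that differed. Over all 11550 genes tested 1139 rose and 1157 fell with the block.

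Class medians moved as follows. For HSP70/90 (0.29) they were 0.41 with library totals, 0.52 with voom, 0.11 with weights, 0.79 and 0.80 on the TPM scales and 0.14 to 0.63 without 1 library. For lectins (-0.01) they were 0.13 with weights, 0.27 and 0.28 on TPM and -0.075 to 0.13 without 1 library. For the disulfide class (0.15) TPM gave 0.42 and 0.43. For ERAD (-0.23) they were -0.15 with upper-quartile scaling, -0.12 with totals, -0.21 with a filter of 1 CPM, -0.30 with offsets without DMSO replicate 1 and -0.21 with offsets and block, and -0.24 to -0.21 without 1 library. The sign turned on TPM (0.056 and 0.060). For the translocon (0.71) they were 0.79, 0.82, 0.59, 0.97 and 0.98 with upper quartile, totals, weights and the TPM scales, 0.60, 0.59 and 0.60 with offsets alone, without DMSO replicate 1 and with the block, and 0.61 to 0.78 without 1 library. The cause was not tested.

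Single genes whose sign turned were not called with all libraries under edgeR. Leaving out 1 library gave -0.013 to 0.14 for HYOU1, -0.023 to 0.26 for PDIA5, -0.11 to 0.63 for SDF2L1 and -0.10 to 0.016 for DERL2. SDF2 was at -0.0013 with weights, and SDF2L1 at -0.17 with weights and -0.063 with offsets without DMSO replicate 1. On the TPM scales P4HB (0.094, 0.095), TXNDC5 (0.13, 0.15), SEL1L (0.10, 0.10), EDEM2 (0.037, 0.039), EDEM3 (0.075, 0.080), HERPUD1 (0.21, 0.23) and DERL2 (0.22, 0.24) turned positive. HERPUD1 and DERL2 did so with upper-quartile scaling (0.033, 0.047) and totals (0.061, 0.076). Counts were lowest for DERL3 and ERO1B, while SE was largest for SDF2L1 (0.46) and SEC61B (0.30).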

Other observations

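Most of the HSP70, HSP90 and HSP110 genes of the cytosol, which fold proteins outside the ER, were higher with erianin. Of 11 tested, 8 rose and 0 fell, against 11.8% and 12.3% of all genes tested (9 and 0 without DMSO replicate 1, against 27.8% and 27.4%), with a median log2 fold change of 1.002. HSPA4 (0.05), HSPA4L (-0.0037) and HSPA1A (1.86, at under 1 CPM in every library) were not called with all libraries (edgeR adjusted p = 0.829, 0.991 and 0.0835). Among those that rose, HSPA2 (0.125 and 0.415 CPM) and HSPA6 (1.14 and 1.87 CPM) were low in both groups. HSPA6 lost its call without any 1 library (up to 0.144). HSPA2 and HSP90AB1 lost theirs without any 1 library other than DMSO replicate 1 (up to 0.105 and 0.0756). HSPA8 and HSPA14 kept their calls under every alternative run. HSPA1B, an inducible HSP70, was at 4.53, 7.09 and 7.27 CPM in DMSO and at 33.4, 33.7 and 37.1 CPM with erianin, and rose by 2.46 ± 0.19 (edgeR adjusted p = 0.000921). HSP90AA1, the inducible HSP90, was at 970, 711 and 697 CPM in DMSO and at 2437, 2425 and 2231 CPM with erianin, and rose by 1.58 ± 0.15 (edgeR adjusted p = 0.0016). HSPH1, the HSP110 that exchanges nucleotide on HSP70, was at 223, 180 and 181 CPM against 448, 460 and 444 CPM and rose by 1.21 ± 0.12 (edgeR adjusted p = 0.00158). For HSPA1B, HSP90AA1 and HSPH1 the groups lay far apart, and the calls held under every alternative run. HSPA1A shares nearly all of its coding sequence with HSPA1B, so reads of the pair may have been split by the counting. No difference between the cytosolic and the ER lists was tested.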
